A study of Mus musculus with 2 samples.

Results

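The 8 genes described here encode receptors for extracellular nucleotides and adenosine, and the cell-surface enzyme that degrades ATP: the ATP-gated channels P2rx4 and P2rx7, the G protein-coupled nucleotide receptors P2ry2, P2ry6, P2ry12 and P2ry14, the adenosine receptor Adora2b and the ectonucleotidase Entpd1. They were taken by symbol, and all 8 were found among the 55536 genes of the deposited gene tables. The RNA came from the nuclear fraction of C57BL/6J mouse bone marrow derived macrophages, named nucleoplasmic in one label and nucleus in others, after exposure to Lipid A, the part of lipopolysaccharide that activates Toll-like receptor 4, at 100 ng/ml for 10 min. Libraries were made from total RNA without ribosomal RNA. There was 1 group with 2 libraries, made from 1 µg of RNA in replicate 1 and 500 ng in replicate 2. Both libraries carry the same donor identifier with separate biosamples, and the labels do not say whether separate animals were used, so the spread between them may be technical. Cells without Lipid A were not analysed here, so every level below is a level at 1 time and not a response to Lipid A.

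Cells release ATP when they are stressed or stimulated, and neighbouring cells read it through P2X channels, which admit cations within milliseconds of binding ATP, and through P2Y receptors, which act through G proteins and differ in whether they prefer ATP, ADP, UTP, UDP or UDP-glucose. Ectonucleotidases remove the signal in steps: CD39, the product of Entpd1, converts ATP and ADP to AMP, and CD73, the product of Nt5e, converts AMP to adenosine. Adenosine then acts on its own receptors, of which A2B couples to cyclic AMP and restrains inflammatory macrophages. In macrophages P2X7 is best known for the potassium efflux that precedes assembly of the NLRP3 inflammasome.

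The first quantification, from which all levels are given unless stated, holds expected counts and TPM, a level corrected for transcript length and library depth, per gene, with 19153465 expected counts on genes in replicate 1 and 11622346 in replicate 2. Errors are SD with n = 2. All 10 macrophage markers were at 1 TPM or more in both libraries, with a summed level of 3732 TPM in replicate 1 and 2289 in replicate 2. Of 6 endothelium markers, 2 were detected in the same way, and the summed level of the 6 was 45.1 TPM in replicate 1 and 43.0 in replicate 2. Of 7 neutrophil markers 1 was detected, with a summed level of 4.59 and 3.78 TPM. No T and NK cell, B cell, mast cell and basophil, dendritic cell or fibroblast marker reached 1 TPM in both libraries. This absence did not hold in the second quantification, described below. There the T cell marker Cd3d had 2.53 TPM in replicate 1 and 10.1 in replicate 2, against 0 and 0.10 TPM in the first. In bulk RNA, a gene carried by few cells and a gene carried weakly by all cells cannot be told apart.

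Of the 8 genes, 6 were detected at 1 TPM or more in both libraries, P2ry12 passed in replicate 1 alone, and Adora2b passed in neither. Among 21951 protein-coding genes, 46.1% were detected in the same way. The median level of the 8 genes was 29.99 TPM for replicate 1 and 24.4 TPM for replicate 2, with a mean of 27.2 ± 3.96 TPM. Detected protein-coding genes had a median of 10.9 TPM for replicate 1 and 9.96 TPM for replicate 2. By mean level the order was P2rx4, Entpd1, P2ry6, P2rx7, P2ry14, P2ry2, P2ry12 and Adora2b. The ranges of the 2 libraries overlapped for the neighbours P2ry6 and P2rx7, and for P2ry12 and Adora2b, and for no other neighbours in that order.

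**Figure D1:**
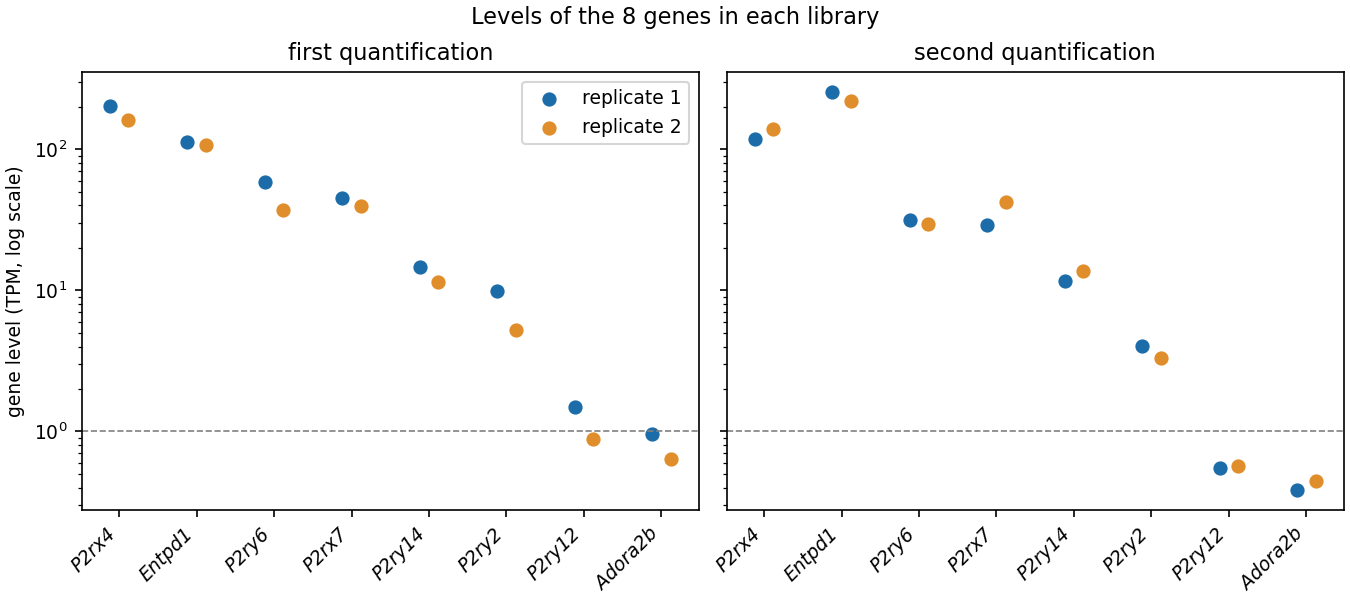
Level of each of the 8 genes in TPM (log axis) in replicate 1 and replicate 2, in the first quantification on the left and the second on the right, with the dashed line at 1 TPM. P2rx4 is the highest gene in the first quantification and Entpd1 in the second, while P2ry12 and Adora2b lie lowest in both.

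P2rx4, an ATP-gated channel known from endosomes and lysosomes of macrophages as well as the cell surface, lies on chromosome 5 from 122707544 to 122729738 on the plus strand (mm10). It reached 202 TPM in replicate 1 and 162 in replicate 2, from 8659 and 4065 expected counts. The mean of 182 ± 28.3 TPM placed it at rank 136 among protein-coding genes, above 98.7% of the detected ones. Of the TPM of all 7 P2X genes, P2rx4 held 80.6 ± 1.06%, and of the TPM of all 20 P2X, P2Y and adenosine receptor genes it held 59.97 ± 1.41%.

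Much of the P2rx4 signal fell on annotated transcripts that keep an intron and have no annotated coding sequence. The part of unspliced precursor RNA of this nuclear fraction in that signal was not tested. Retained intron transcripts held 48.6% of its TPM in replicate 1 and 58.0% in replicate 2, and protein-coding transcripts held 49.1% in replicate 1 and 38.0% in replicate 2. Over 6326 detected protein-coding genes with a retained intron transcript in the annotation, the median share was 32.5%, and 17.9% of them had a larger share than P2rx4. In the second quantification the retained share of P2rx4 was 46.3 ± 2.61%, against a median of 36.6% over the same genes.

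The 3 P2rx4 retained intron transcripts differ in the intron they keep, and the boundaries where each leaves its exon are shown as the places where the RNA differs from spliced message. Exon bases are in lower case and the first 30 intron bases in capitals, on the plus strand of mm10, read from the GENCODE M21 transcripts.
P2rx4-208, exon 1 into intron 1, chr5:122707758-122707817: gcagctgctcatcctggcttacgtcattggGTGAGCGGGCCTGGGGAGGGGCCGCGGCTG
P2rx4-207, exon 5 into intron 5, chr5:122719197-122719256: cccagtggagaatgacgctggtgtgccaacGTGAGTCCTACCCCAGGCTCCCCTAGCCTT
P2rx4-203, exon 6 into intron 6, chr5:122724655-122724704: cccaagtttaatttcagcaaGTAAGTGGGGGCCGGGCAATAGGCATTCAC
The single-exon transcript P2rx4-208 runs from exon 1 through 3676 of the 6611 bases of intron 1 and had 47.7 TPM in replicate 1 and 37.0 in replicate 2. It took 45.4% of the gene's expected counts in replicate 1 and 48.5% in replicate 2, the largest share of any P2rx4 transcript in each library. P2rx4-207 reads 251 of 5367 bases into intron 5 and had 23.7 TPM in replicate 1 and 16.3 in replicate 2. P2rx4-203, which spans the whole 315-base intron 6, was the one P2rx4 retained intron transcript with a lower level in replicate 1, at 26.8 TPM, against 40.7 TPM in replicate 2.

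Among protein-coding P2rx4 transcripts, P2rx4-202, which lacks exon 6 and encodes 361 residues, had 59.6 TPM in replicate 1 and 30.6 in replicate 2. P2rx4-201, with all 12 exons and 388 residues, had 35.2 TPM in replicate 1 and 27.6 in replicate 2. P2rx4-202 was the higher of this pair in both libraries and again in the second quantification, where it had 29.0 TPM in replicate 1 and 27.6 in replicate 2 and P2rx4-201 had 10.2 and 13.5 TPM. P2rx4-206, a shorter coding transcript that also holds exon 6, had 4.34 TPM in replicate 1 and 3.33 in replicate 2. With P2rx4-206 added to P2rx4-201, coding transcripts with exon 6 had 39.6 TPM in replicate 1 and 30.9 in replicate 2, so those without it were higher in replicate 1 and about equal in replicate 2. The same sums in the second quantification were 22.6 TPM in replicate 1 and 24.5 in replicate 2, below P2rx4-202 in each. These transcripts share most of their exons, so the split rests on reads over exon 6, over the junction across it and over the longer last exon of P2rx4-201.

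P2rx7, the channel that opens at high ATP and is tied to NLRP3 activation and interleukin-1β release, lies 16112 bases upstream of P2rx4 on the same strand, from 122643911 to 122691432. It reached 45.4 TPM in replicate 1 and 39.8 in replicate 2, from 3026 and 1808 expected counts, with a mean of 42.6 ± 3.97 TPM. It held 18.9 ± 0.942% of P2X TPM, so P2rx4 and P2rx7 carried nearly all of it. The other P2X genes were all under 1 TPM. P2rx5 had 0.27 TPM in replicate 1 and 0.51 in replicate 2, P2rx1 had 0.20 and 0.28 TPM, and P2rx6 had 0.27 and 0.15 TPM. P2rx3 and P2rx2 had at most 3 expected counts in either library.

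The annotation gives P2rx7 several starts and truncated variants, and the transcript tables separate them. P2rx7-203, the full-length form of 595 residues, had 23.2 TPM in replicate 1 and 24.8 in replicate 2. It held 81.2% of the gene's expected counts in replicate 1 and 93.5% in replicate 2. Its share of P2rx7 TPM was 51.1% in replicate 1 and 62.2% in replicate 2, and 32.5% and 34.2% in the second quantification. The highest of the shorter coding forms was P2rx7-202, with 4 exons and 153 residues, at 6.49 TPM in replicate 1 and 5.71 in replicate 2. It held 14.3 ± 0.0412% of P2rx7 TPM, 2.31 ± 0.0431% of its expected counts, and 18.9 ± 5.27% of TPM in the second quantification. The processed transcript P2rx7-207 had 5.09 TPM in replicate 1 and 7.77 in replicate 2, or 11.2% and 19.5% of P2rx7 TPM. In the second quantification its share was 29.7% in replicate 1 and 39.0% in replicate 2, where it was above P2rx7-203. Of the longer variants, P2rx7-204 (431 residues) had 2.23 TPM in replicate 1 and 0.56 in replicate 2, and P2rx7-201 (442 residues) had 0.20 TPM in replicate 1 and was listed at 0 in replicate 2. In the second quantification P2rx7-201 had 0.942 TPM in replicate 1 and 2.37 in replicate 2. The retained intron transcript P2rx7-205, near the 3′ end of the gene, had 8.20 TPM in replicate 1 and 1.00 in replicate 2. P2rx7-205 lies wholly within the last exon of the full-length P2rx7-203, so its bases are also those of spliced message. The split of reads between these 2 transcripts was not tested. Mir8115 lies within P2rx7 and shares 119 exon bases with it; it was listed at 0 in both libraries.

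P2rx7 has an alternative first exon, used by P2rx7-208 (592 residues), that starts 6513 bases downstream of the main start. Transcripts from the main start held 81.9% of P2rx7 TPM in replicate 1 and 97.5% in replicate 2, and P2rx7-208 was listed at 0 in both libraries. In the second quantification the main group held 91.7% in replicate 1 and 94.5% in replicate 2, and P2rx7-208 had 2.00 TPM in replicate 1 and 2.32 in replicate 2. The promoters at both starts are shown because the transcript tables bear on the choice between them. They are RefSeq sequences of GRCm38.p6, from 250 bases before to 50 bases after each start, on the plus strand, with motif matches in capitals.
P2rx7 main start, chr5:122643677-122643976: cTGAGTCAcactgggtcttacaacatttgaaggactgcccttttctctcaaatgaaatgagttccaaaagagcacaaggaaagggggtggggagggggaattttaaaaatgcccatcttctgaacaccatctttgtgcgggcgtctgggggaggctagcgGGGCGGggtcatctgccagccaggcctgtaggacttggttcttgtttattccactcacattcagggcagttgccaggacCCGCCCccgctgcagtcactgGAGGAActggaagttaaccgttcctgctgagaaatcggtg
P2rx7 alternative start, chr5:122650133-122650432: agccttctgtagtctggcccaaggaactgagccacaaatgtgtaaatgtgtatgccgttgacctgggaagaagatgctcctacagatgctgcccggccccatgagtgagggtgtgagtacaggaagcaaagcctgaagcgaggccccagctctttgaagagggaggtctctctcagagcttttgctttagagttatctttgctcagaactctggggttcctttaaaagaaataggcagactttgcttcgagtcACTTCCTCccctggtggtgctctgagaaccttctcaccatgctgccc
Matches to 7 motifs were sought on both strands. The PU.1 motif was taken as GAGGAAGT, which contains the ETS core motif GAGGAA. The AP-1 motif was taken as TGANTCA, the E-box as CACGTG and the TATA box as TATAAA. The GC box was taken as GGGCGG, and the NF-kB motif was the seventh. Positions count from 0 at the RefSeq start base. At the alternative start this base lies 41 bases upstream of the annotated start of P2rx7-208. At the main start it lies 12 bases upstream of that of P2rx7-201, the nearest annotated start. The main start held an AP-1 match at -249 to -243, GC box matches at -90 to -85 and -11 to -6, and an ETS core match at 10 to 15. The alternative start held a PU.1 match at 3 to 10, which contains its only ETS core match. Of 32851 RefSeq promoters of the same length, 3.20% held a PU.1 match, 28.3% an ETS core match, 7.81% an AP-1 match and 35.7% a GC box match.

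Of the P2Y genes, P2ry6 was the highest. It encodes the UDP receptor, which couples to Gq, and lies on chromosome 7 from 100937630 to 100974649 on the minus strand. It reached 58.5 TPM in replicate 1 and 37.4 in replicate 2, from 1502 and 650 expected counts. The mean was 48.0 ± 14.9 TPM, and P2ry6 held 61.9 ± 2.0% of the TPM of the 9 P2Y genes. The spread between libraries was uneven across its transcripts: the coding transcript P2ry6-201 had 32.5 TPM in replicate 1 and 21.9 in replicate 2, the retained intron transcript P2ry6-202 had 16.5 and 2.81 TPM, and the processed transcript P2ry6-203 had 9.54 and 12.7 TPM. The coding transcript held 83.6% of expected counts in replicate 1 and 84.3% in replicate 2. Gm44545, a provisional gene model within P2ry6 on the opposite strand that shares no exon bases with it, had 15.8 TPM in replicate 1 and 6.36 in replicate 2.

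P2ry2, the Gq-coupled receptor for ATP and UTP, known for the find-me response of phagocytes to nucleotides from dying cells, lies 21919 bases upstream of P2ry6 in the direction of transcription, from 100996568 to 101012866. It reached 9.96 TPM in replicate 1 and 5.20 in replicate 2, from 256 and 106 expected counts, with a mean of 7.58 ± 3.37 TPM. Replicate 1 was higher. The retained intron transcript P2ry2-205, 565 bases long and beginning 875 bases from the gene's first annotated start, had 5.04 TPM in replicate 1 and 2.18 in replicate 2. It held 46.3 ± 6.14% of P2ry2 TPM but 12.7 ± 3.20% of its expected counts. The protein-coding transcripts together had 4.92 TPM in replicate 1 and 3.02 in replicate 2.

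P2ry14 encodes the Gi-coupled receptor for UDP-glucose and other UDP-sugars. It lies on chromosome 3 from 59113855 to 59153618 on the minus strand, inside Med12l, which is transcribed from the plus strand. It reached 14.6 TPM in replicate 1 and 11.4 in replicate 2, from 1242 and 617 expected counts, with a mean of 13.0 ± 2.25 TPM. Most of these counts were not assigned to transcripts that encode the receptor. The single-exon transcript P2ry14-204, 7795 bases beginning at the most upstream start and classed as a retained intron, held 77.9% of the gene's expected counts in replicate 1 and 78.8% in replicate 2. On the length-corrected scale its share, of TPM, was 39.1% in replicate 1 and 38.9% in replicate 2. The transcripts annotated as protein-coding had 8.87 TPM in replicate 1 and 6.95 in replicate 2, from 274 and 131 expected counts. They include P2ry14-207, with 9 coding residues, at 1.44 TPM in replicate 1 and 1.91 in replicate 2. P2ry14-209, with 4 coding residues, was listed at 0 in both libraries. In the second quantification it held 43.0% of P2ry14 TPM in replicate 1 and 35.4% in replicate 2. P2ry14-204 lies in an intron of Med12l, whether counting used strand is not known, and the part of Med12l RNA in these counts was not tested. Med12l itself had 1.00 TPM in replicate 1 and 1.04 in replicate 2.

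P2ry12 encodes the Gi-coupled ADP receptor of platelets and microglia. It reached 1.48 TPM in replicate 1 and 0.89 in replicate 2, from 60 and 25 expected counts. The deposited 95% intervals were 1.14 to 2.09 TPM in replicate 1 and 0.679 to 1.60 TPM in replicate 2, so they overlapped, and 1 TPM lay inside the interval of replicate 2 and below that of replicate 1. All 5 of its transcripts are protein-coding, and at this depth their split was not stable: P2ry12-203 had 17 expected counts in replicate 1 and 0 in replicate 2. P2ry12 also lies inside Med12l and shares 9 exon bases with it. Among microglia markers, Tmem119 had at most 2 expected counts and Sall1 had 0 in both libraries. Among the 8 megakaryocyte and platelet markers, Pf4 had 46.1 TPM in replicate 1 and 33.3 in replicate 2, Gp1ba had 1.15 and 1.05 TPM, and the other 6 were under 1 TPM in both libraries. The summed level of the 8 was 49.2 TPM in replicate 1 and 35.4 in replicate 2. The part of such cells in the P2ry12 counts was not tested.

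The remaining P2Y genes were also low. P2ry13, a second ADP receptor, which lies 5390 bases from P2ry12, had 2.73 TPM in replicate 1 and 2.03 in replicate 2. P2ry1, the Gq-coupled ADP receptor, had 1.65 and 1.83 TPM, and P2ry10b had 3.43 and 2.97 TPM. P2ry10 and P2ry4 had at most 3 expected counts in either library. P2ry10b and P2ry10 were listed by their symbols, and whether nucleotides act on their products was not examined. In all, 6 of the 9 P2Y genes, P2ry10b among them, were detected in both libraries and P2ry12 in 1 library. This compares with 2 of the 7 P2X genes and 0 of the 4 adenosine receptor genes.

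Adora2b, the Gs-coupled adenosine receptor of low affinity, lies on chromosome 11 from 62248984 to 62266453 on the plus strand and has 1 annotated transcript. It reached 0.96 TPM in replicate 1 and 0.64 in replicate 2, from 35 and 15 expected counts. The deposited 95% intervals were 0.643 to 1.25 TPM in replicate 1 and 0.345 to 0.949 TPM in replicate 2. It was the highest of the adenosine receptors in the first quantification. Adora3 had 0.59 TPM in replicate 1 and 0.20 in replicate 2, and Adora2a, the Gs-coupled receptor of high affinity, had 0.27 and 0.12 TPM. Adora1 had 0 counts in replicate 1, where 3 counts would correspond to 0.0410 TPM, and 1 count in replicate 2. In the second quantification Adora3 was the highest of the 4, with 1.34 TPM in replicate 1 and 1.88 in replicate 2, against 0.386 and 0.443 TPM for Adora2b.

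**Figure D2:**
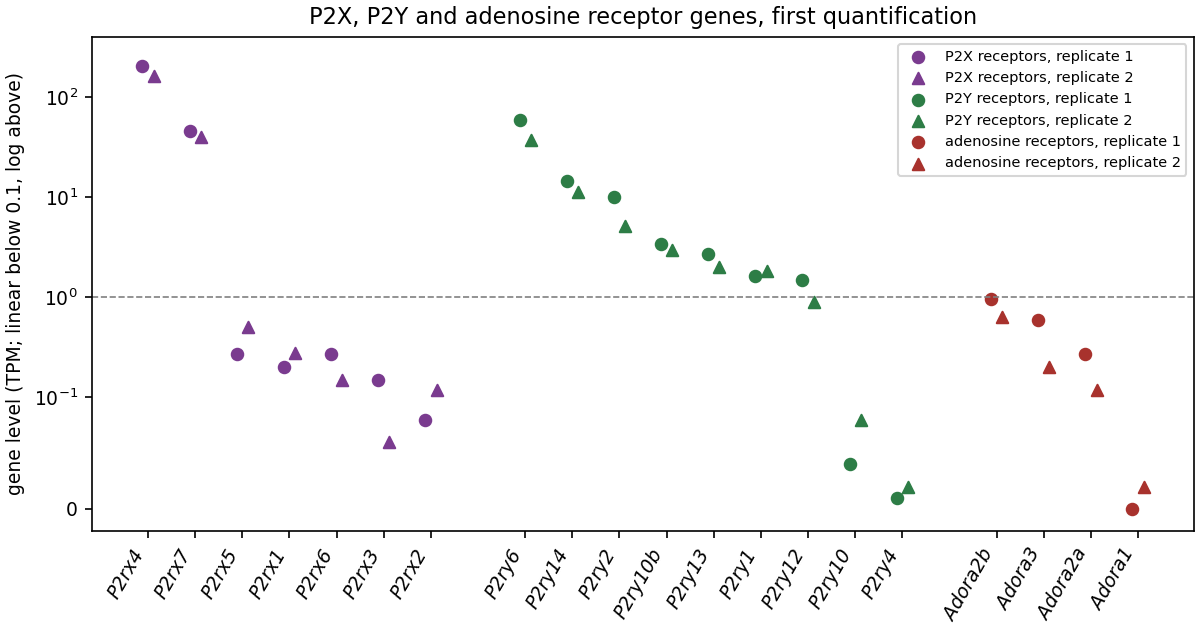
Level in TPM of the 20 P2X, P2Y and adenosine receptor genes in the first quantification, in replicate 1 (circles) and replicate 2 (triangles). The vertical axis is linear below 0.1 and logarithmic above, and the dashed line marks 1 TPM. P2rx4, P2rx7 and P2ry6 stand above 30 TPM in both libraries, P2ry14 and P2ry2 lie between 5 and 15 TPM, and the adenosine receptors lie under 1 TPM.

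Entpd1 encodes CD39, the ectonucleotidase that hydrolyses ATP and ADP at the cell surface. It lies on chromosome 19 from 40612366 to 40741602 on the plus strand. It reached 112 TPM in replicate 1 and 107 in replicate 2, from 6258 and 3941 expected counts. The mean of 110 ± 4.11 TPM placed it at rank 271 among protein-coding genes. The coding transcript Entpd1-201 (510 residues) had 65.8 TPM in replicate 1 and 64.5 in replicate 2 and held 94.4% and 94.8% of the expected counts. Short processed transcripts, led by Entpd1-206, held 38.4% of TPM in replicate 1 and 33.5% in replicate 2, but 4.99% and 4.59% of expected counts.

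Entpd1 has 2 main annotated starts, 47404 bases apart, whose coding transcripts differ in the first exon. Their promoters are shown because nearly all of the TPM in the first quantification was assigned to the group of starts at or just after one of them. The source, build and window are those given for P2rx7.
Entpd1 upstream start, chr19:40612116-40612415: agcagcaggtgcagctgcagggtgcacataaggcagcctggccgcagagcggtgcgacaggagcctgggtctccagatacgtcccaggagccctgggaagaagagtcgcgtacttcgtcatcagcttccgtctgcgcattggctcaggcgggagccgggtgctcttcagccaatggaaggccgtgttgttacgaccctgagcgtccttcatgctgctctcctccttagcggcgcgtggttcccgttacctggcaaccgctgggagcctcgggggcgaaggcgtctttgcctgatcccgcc
Entpd1 downstream start, chr19:40659520-40659819: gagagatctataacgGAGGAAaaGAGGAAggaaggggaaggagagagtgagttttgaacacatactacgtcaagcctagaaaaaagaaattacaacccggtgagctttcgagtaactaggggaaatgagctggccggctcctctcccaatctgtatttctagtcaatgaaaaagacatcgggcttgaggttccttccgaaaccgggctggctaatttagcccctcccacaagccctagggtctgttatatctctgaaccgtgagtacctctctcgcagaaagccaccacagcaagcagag
Transcripts from the downstream group of starts, 40659770 to 40660493, held 99.0% of Entpd1 TPM in replicate 1 and 100% in replicate 2. Entpd1-201, which starts inside the window shown, held 58.5% in replicate 1 and 60.4% in replicate 2. Entpd1-206 (30.2% and 28.0%) and Entpd1-208 (7.67% and 5.50%) belong to this group but start past the end of that window. Transcripts from the upstream start held 0.418% in replicate 1 and were listed at 0 in replicate 2. Entpd1-204, the coding transcript of the upstream start (539 residues), had 23.0 expected counts in replicate 1 and 0 in replicate 2. In the second quantification the downstream group held 82.7% in replicate 1 and 80.8% in replicate 2, and the upstream start held 4.11% and 5.28%. Within the downstream group, Entpd1-208 held 53.3% of Entpd1 TPM in replicate 1 and 37.7% in replicate 2. Entpd1-206 held 16.5% and 21.9%, and Entpd1-201 held 9.18% and 16.4%. The TPM outside both groups lay on Entpd1-205 (7.81% and 7.22%) and Entpd1-207 (5.39% and 6.67%), which have their own starts further downstream. The downstream promoter held ETS core matches at -235 to -230 and -227 to -222, and the upstream promoter held no match to any of the 7 motifs. The GC content was 48.7% at the downstream start and 64.0% at the upstream start.

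Across the other members with a RefSeq promoter, P2rx4 held a GC box match at 19 to 24, and Adora2b held 6 GC box matches. P2ry2 held 4 GC box matches and 1 E-box match in each of its windows, and these overlap. P2ry12 held 1 E-box match. Of the 4 P2ry14 promoters, each held an ETS core match, 2 an AP-1 match and 1 a TATA box match, and 2 of these windows overlap and share their ETS core match. E-box matches were found in 7.15%, TATA box matches in 13.6% and NF-kB matches in 1.63% of all RefSeq promoters, and no NF-kB match was found in the 13 promoters of these genes.

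**Figure D3:**
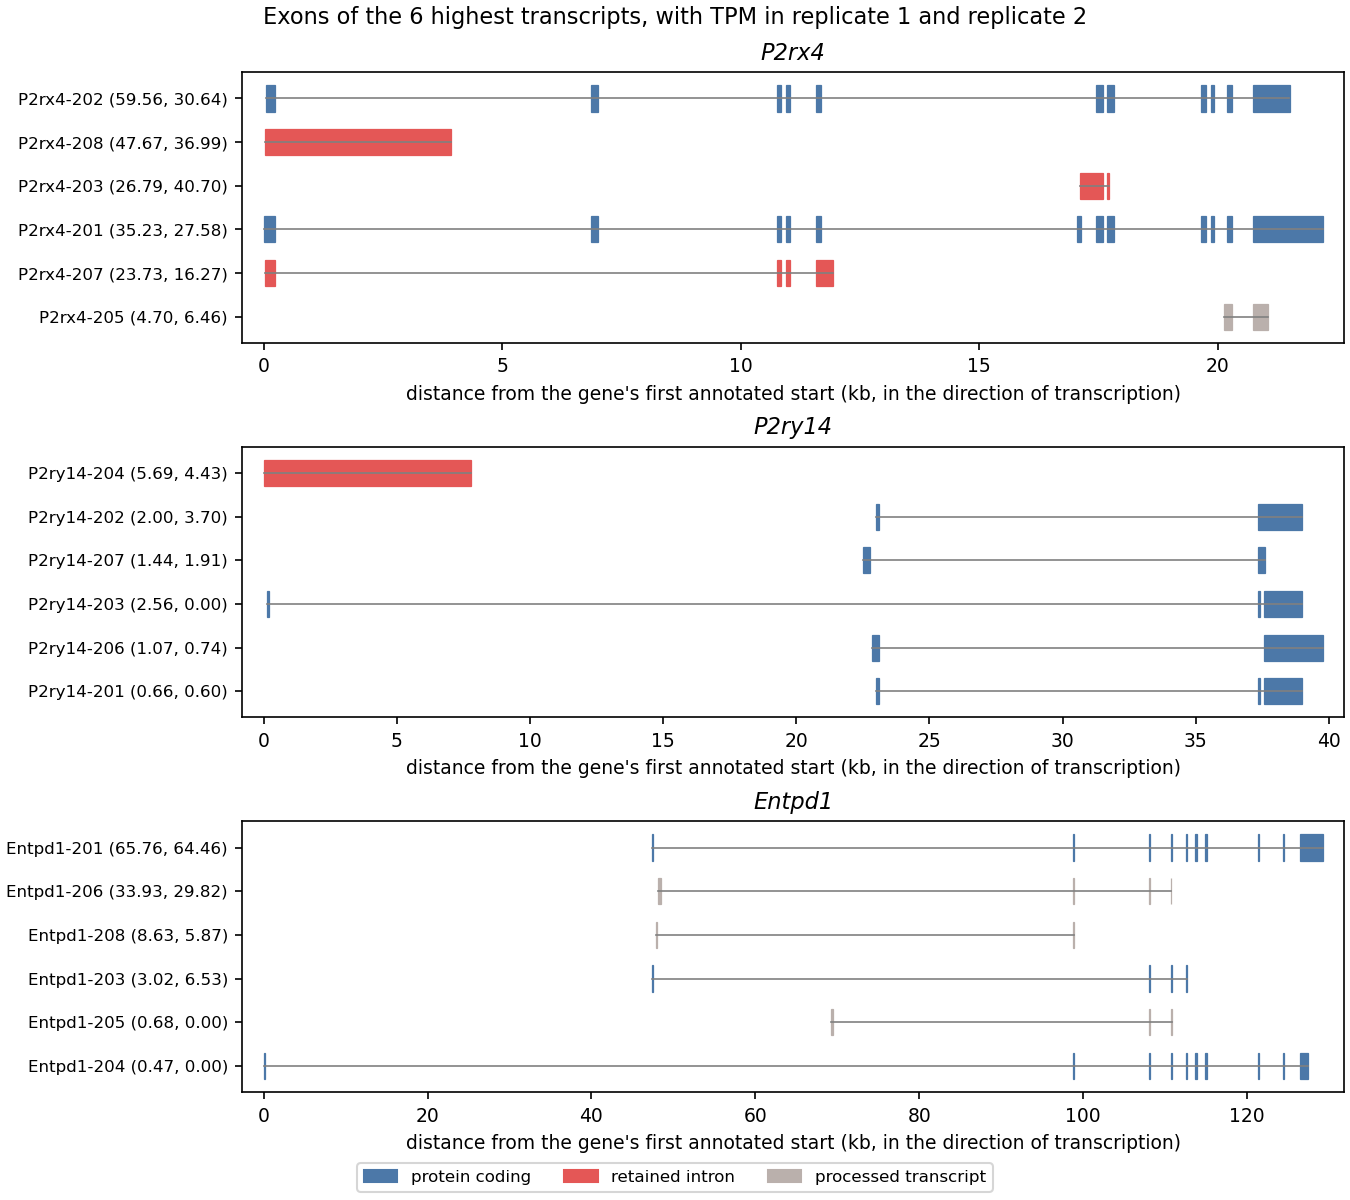
Exons of the 6 highest transcripts of P2rx4, P2ry14 and Entpd1, by distance in kb from the first annotated start of the gene, with TPM in replicate 1 and replicate 2 beside each name and colour giving the annotated type. P2rx4-208 and P2ry14-204 are single long exons at the upstream end, and Entpd1-204 is the one displayed Entpd1 transcript that begins at the upstream start.

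The genes around the 8 were read as well. P2rx4 ends 1432 bases from Camkk2, the kinase gene on the opposite strand, which had 30.8 TPM in replicate 1 and 28.6 in replicate 2. The upstream start of Entpd1 lies 133 bases from Tctn3 on the opposite strand, which had 9.67 TPM in replicate 1 and 8.27 in replicate 2. Within Entpd1, the pseudogene Gm8783 had 3.71 expected counts in replicate 1 and 1.11 in replicate 2, and the pseudogene Gm16027 and the intronic transcript AC166063.1 were listed at 0. Zswim7, 771 bases from Adora2b, had 1.76 TPM in replicate 1 and 1.07 in replicate 2. Gpr171, next to P2ry14, had 1.74 and 1.00 TPM, and Arhgef17, next to P2ry6, had 0.07 and 0.02 TPM.

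Retained intron transcripts were annotated for 5 of the 8 genes, and their share of TPM differed among these genes. The part of unspliced precursor RNA in these shares was not tested. The share was 53.3 ± 6.65% for P2rx4, 46.3 ± 6.14% for P2ry2, 39.0 ± 0.107% for P2ry14, 17.8 ± 14.6% for P2ry6 and 10.3 ± 11.0% for P2rx7. Among the 6326 genes with such transcripts, 27.2% had a larger share than P2ry2, 38.8% a larger share than P2ry14, 76.4% a larger share than P2ry6 and 88.3% a larger share than P2rx7. By the second quantification 33.99% had a larger share than P2rx4, 42.0% than P2ry2, 77.96% than P2ry14, 60.7% than P2ry6 and 99.3% than P2rx7. The shares of P2ry6 and P2rx7 had an SD of the size of the mean. When only protein-coding transcripts were summed, P2rx4 had 99.1 TPM in replicate 1 and 61.6 in replicate 2, a range that overlapped that of Entpd1, at 69.2 and 71.0 TPM. P2rx7 (32.1 and 31.0 TPM) and P2ry6 (32.5 and 21.9 TPM) overlapped on this scale as well.

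**Figure D4:**
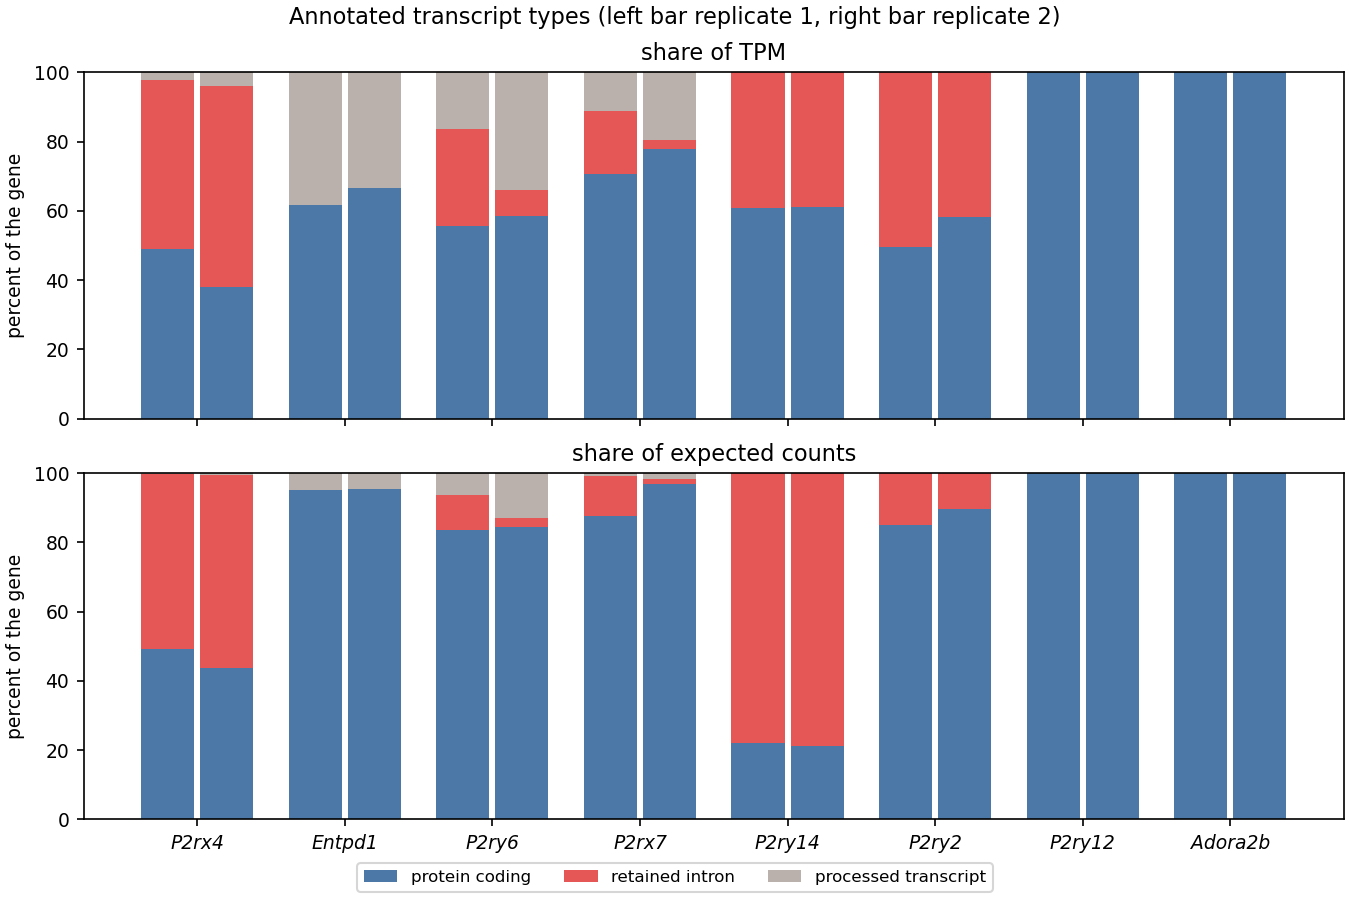
Percent of each gene's TPM (upper panel) and expected counts (lower panel) in protein-coding, retained intron and processed transcripts, with replicate 1 as the left bar and replicate 2 as the right bar of each pair. P2rx4 is near 50% retained intron on both scales, while P2ry14 goes to 78.4% of counts and P2ry2 to 12.7%.

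The second quantification, made from the reads and the same annotation, gave a different leading gene. Entpd1 had 254 TPM in replicate 1 and 219 in replicate 2, and P2rx4 had 119 and 139 TPM. Entpd1 was 2.16-fold and P2ry2 0.485-fold of its level in the first quantification. Over the 10118 detected protein-coding genes, 6.47% were more than 2-fold apart between the quantifications and the median ratio was 0.721. The ratio was 0.708 for P2rx4, 0.640 for P2ry6, 0.842 for P2rx7 and 0.983 for P2ry14. It was 0.473 for P2ry12 and 0.518 for Adora2b, which are not among the detected genes. P2ry12 had 0.554 TPM in replicate 1 and 0.568 in replicate 2 in the second quantification, so neither library passed 1 TPM there. The difference for Entpd1 lay mostly in a short transcript, Entpd1-208 of 204 bases, which had 136 TPM in replicate 1 and 82.4 in replicate 2 in the second quantification, against 8.63 and 5.87 TPM in the first. The coding transcript Entpd1-201 had 23.4 TPM in replicate 1 and 36.0 in replicate 2 in the second quantification. The number of the 8 genes detected in both libraries was 6 in either quantification.

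Between libraries, on expected counts scaled by TMM, 0 of the 8 genes were more than 2-fold apart, against 3.70% of 11662 protein-coding genes with a mean of at least 10 scaled counts. The log2 ratio of replicate 1 over replicate 2 was 0.35 for P2rx4 (95% counting interval 0.29 to 0.40), 0.46 for P2ry6 (0.33 to 0.60), 0.53 for P2ry2 (0.20 to 0.87) and 0.26 for P2ry14 (0.12 to 0.41). It was -0.08 for Entpd1 (-0.14 to -0.02). For P2rx7 it was -0.0015 (-0.09 to 0.08). The ratio was 0.51 for P2ry12 (-0.18 to 1.25) and 0.47 for Adora2b (-0.43 to 1.46), whose intervals include 0. In all, 6 genes were higher in replicate 1, but 7 with DESeq2 size factors and 8 on TPM ratios or in the second quantification, and the median over the 8 was 0.41. The median over the protein-coding genes was 0.00, with 50.4% of them higher in replicate 1 and a 10th to 90th percentile range of -0.39 to 0.52. There is 1 library on either side, so no test was made, and these intervals cover counting error only.

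**Figure D5:**
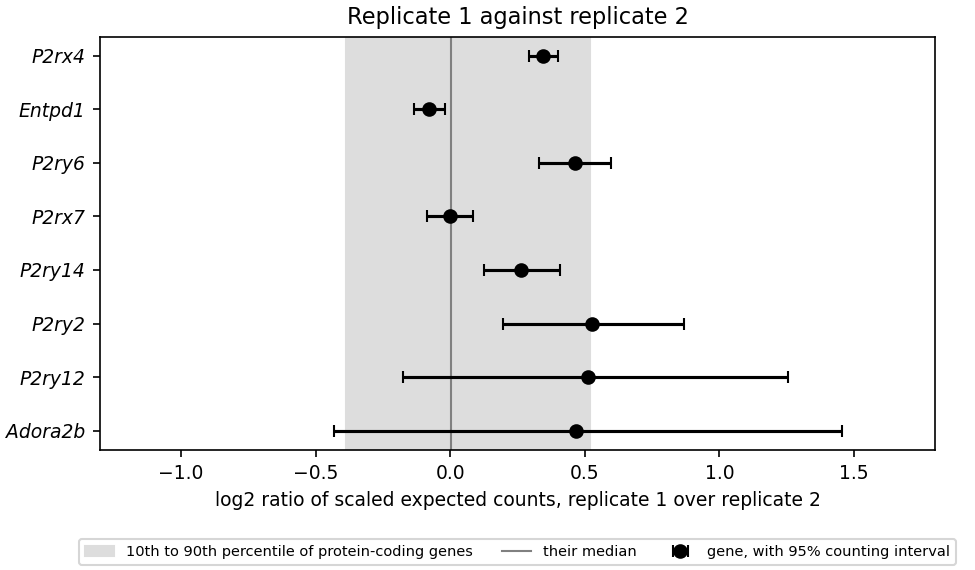
Log2 ratio of scaled expected counts in replicate 1 over replicate 2 for each gene, with its 95% counting interval, over the 10th to 90th percentile band of protein-coding genes (grey) and their median (line). P2ry2 lies at the edge of the band at 0.53 and Entpd1 lies just below 0.

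The rest of the pathway was read from lists of genes that make, remove or transmit these ligands. Of 12 ectonucleotidases, 4 were detected: Entpd1, Enpp1 (7.39 TPM in replicate 1 and 5.93 in replicate 2), Nt5e (1.40 and 1.38 TPM) and Acpp, the prostatic acid phosphatase gene (1.22 and 1.03 TPM). The 5 genes Entpd2, Entpd8, Enpp2, Enpp3 and Alpl had 0 counts in both libraries, where 3 counts would correspond to at most 0.353 TPM. CD39 transcripts stood at 110 ± 4.11 TPM and those of CD73, the next enzyme towards adenosine, at 1.39 ± 0.0141 TPM. All 5 intracellular NTPDase genes were detected, led by Entpd7 (12.9 and 10.3 TPM in replicates 1 and 2), Entpd4 (10.6 and 10.6 TPM) and Entpd4b (9.63 and 8.46 TPM), whose counts may be shared with its near copy Entpd4.

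For adenosine uptake and removal, 6 of 12 genes were detected. The highest were the lysosomal nucleoside transporter Slc29a3 (32.8 TPM in replicate 1 and 28.9 in replicate 2), the purine nucleoside phosphorylase Pnp (29.8 and 24.3 TPM) and the cell-surface equilibrative transporter Slc29a1 (25.5 and 20.0 TPM). For ATP release, 8 of 14 genes were detected, led by Lrrc8d, a volume-regulated anion channel subunit (31.5 and 25.8 TPM), the pyrophosphate and ATP exporter Ank (11.1 and 8.43 TPM) and the vesicular nucleotide transporter Slc17a9 (6.24 and 5.80 TPM). The pannexin channel gene Panx1 had 4.07 TPM in replicate 1 and 1.96 in replicate 2. All 3 UDP-glucose enzymes were detected: Uggt1 had 34.2 and 27.0 TPM, Ugdh 10.4 and 17.9 TPM and Ugp2, which makes UDP-glucose, 13.0 and 9.72 TPM. Of 12 G protein alpha subunit genes 8 were detected, and the highest were Gnai2 of the Gi class (70.3 and 63.5 TPM), Gnas of the Gs class (69.9 and 58.2 TPM) and Gnaq of the Gq class (42.6 and 39.7 TPM).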

How the data were processed

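Total RNA-seq of a nuclear fraction was analysed in 2 libraries of 1 group. The authors deposited expected counts and TPM per gene and per transcript (the first quantification) and a second transcript table of estimated counts and TPM (the second quantification, summed here per gene). Per the file headers and the deposited text files, both used mm10 with GENCODE M21; programs, versions and strand handling are not given in the sources used here. Column names match RSEM and kallisto output. Interval bounds for TPM (a signal, as deposited by the authors) lie around the posterior mean rather than the TPM, so some exclude the TPM. The isoform percent column deposited by the authors in the transcript tables was not used, and shares were computed from TPM and counts. TPM is scaled to all entries of a table, and in these libraries 30.9% and 29.5% of it lay on protein-coding genes, so a TPM here is lower than in messenger RNA data.

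Symbols and gene identifiers came from the second tables. Of 55536 genes, 55450 had a symbol there. The 26345 entries that name no gene were left out, 1.18% and 0.405% of all counts. Detection required 1 TPM in both libraries. Expected counts were rounded and scaled by TMM (edgeR 4.0.16, R 4.3.3), with DESeq2 1.42.0 size factors as an alternative; scaling was tested on simulated data. Ratios used a pseudocount of 0.5 and genes with a mean of 10 scaled counts. Counting intervals are exact conditional binomial intervals at 95%; they and the limits of 3 counts for a gene at 0 cover counting error only, as PCR copies of a molecule cannot be told apart. The quantifications were compared as ratios of mean TPM with a pseudocount of 0.1 for the count of genes past 2-fold. Transcript starts within 500 bases were grouped. Promoters were available from RefSeq for 7 of the 8 genes, 13 in all; P2ry6 had none. Python 3.11.15, pandas 2.3.3, numpy 2.4.6, scipy 1.17.1 and matplotlib were used.

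The 8 genes and the lists were chosen with earlier results of these data known. The text names all 8, every other P2X, P2Y and adenosine receptor, the 3 highest of each other pathway list with Nt5e and Panx1, genes overlapping or nearest a member, and cell type markers. Among listed symbols, Acp3, Slc28a2b and Fam26f matched no gene. Markers of neutrophils (1 of 7) and endothelium (2 of 6) were also detected in both libraries; the endothelial ones were Vwf and Kdr. Entpd2, Entpd8, Enpp2, Enpp3, Alpl, Acpp, Tmem119 and Sall1 were named after their values were seen. A listed microglia marker is not reported here.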

Additional observations from a re-analysis of the deposited data

How the results depend on the processing

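The count of the 8 genes detected in both libraries was 6 and ranged from 6 to 8 over a threshold of 0.1 or 5 TPM, 10 expected counts, the second quantification and posterior mean TPM, and from 6 to 7 with replicate 1 or replicate 2 left out. The count of the 20 receptor genes detected was 8; in alternatives chosen after seeing the data it was 15 at 0.1 TPM and 5 at 5 TPM, and from 8 to 9 with a replicate left out. The median level of the 8 genes, 27.2 TPM, was 21.1 TPM in the second quantification, 17.5 TPM over protein-coding transcripts only and 89.96 TPM when TPM was rescaled to protein-coding genes only, and ranged from 24.4 to 29.99 TPM with a replicate left out. The number of genes more than 2-fold apart between libraries was 0 under DESeq2 size factors, TPM ratios, a pseudocount of 5, no filter and the second quantification. The log2 ratio of Entpd1, -0.08, was 0.08 on TPM and 0.08 in the second quantification, and that of P2rx7, -0.0015, was 0.19 and 0.04; that of P2ry2, 0.53, was 0.94 on TPM, just under 2-fold. On expected counts, a share chosen after seeing the data, the retained intron share of P2ry14 was 78.4%, that of P2ry2 12.7%, that of P2ry6 6.29% and that of P2rx7 6.47%; in the second quantification that of P2ry14 was 20.1%, that of P2ry6 30.2% and that of P2rx7 0.765%. The cause of these differences was not tested. The second quantification moved the level of 7 of the 8 genes by more than the SD between libraries. No paired analysis was possible because there is 1 group. Depth limits P2ry12 and Adora2b most, with 15 to 60 expected counts per library.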
